A study of Gallus gallus with 20 samples.

Results

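The genes described here are the guidance genes: the semaphorins with their plexin and neuropilin receptors, the ephrins with their Eph receptors, the Slits with their Robo receptors, and the netrins with their UNC5 receptors. They were chosen by gene symbol, with earlier results of these data known. Of the 30108 genes in the count table, 58 carried such a symbol. Another 15860 had no symbol and could not be matched, so the families below may lack members. One of them, UNC50, entered because its symbol begins with the same letters as the UNC5 receptors, although it encodes a different kind of protein. The RNA came from cultured muscle cells of the pectoralis muscle of male Ross-308 broiler chickens aged 36 days, which the labels call primary skeletal myoblasts. Of the 20 libraries, 9 came from birds affected by wooden breast, a myopathy in which the breast muscle hardens, and 11 from non-affected birds. The study sorted birds by palpation and then classified them by histology and near-infrared measurement, which its sampling section combines with RNA-seq analysis. It took part of the cells from fillets of an industrial abattoir, graded by histology and near-infrared measurement only. The labels do not mark which libraries these are. It removed fast-adhering fibroblasts by preplating, and harvested proliferating cells after several passages. It also set aside 2 non-affected samples as outliers without naming them and kept 9. The 11 non-affected libraries used here may therefore include both. The number of affected samples in the study also differs from the 9 here. The libraries describe expanded cells in culture and not the muscle itself.

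Guidance genes encode the signals by which cells attract, repel and sort one another. Semaphorins bind plexins, secreted class 3 semaphorins mostly need a neuropilin as well, and the activated plexin weakens adhesion and rearranges the actin cytoskeleton. Ephrins are tied to the cell membrane, so that ephrin and Eph receptor signal only where cells touch, and the signal can run in both directions. Slits act through Robo receptors and netrins through UNC5 and DCC-type receptors. All of them are best known from growing axons and blood vessels, and in muscle they have been studied mostly in myoblast migration, innervation and vessel growth.

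The total count per library lay between 15632134 and 26541152 in the affected group and between 15425103 and 28113814 in the non-affected group. The 20 libraries carry 16 bird numbers, because 4 numbers (16, 61, 64 and 76) occur once plain and once with the suffix B, whose meaning the labels do not give. Some libraries went against the label male. HINTW, a gene of the female W chromosome, had 1316 to 5701 counts in 9 of the 11 non-affected libraries and 876 counts in the affected library A76, against 0 to 9 counts in the other 8 affected libraries and in NA61 and NA61B. A76 and A76B share a bird number, yet A76B had 0 HINTW counts. The median of Z-linked genes minus that of autosomal genes, each gene centred over the libraries, ran from -0.46 to -0.21 (log2) in the 9 non-affected libraries with HINTW, was 0.09 in A76 and ran from 0.18 to 0.26 in the others. Presence of W transcripts and disease group therefore largely coincide and mostly cannot be told apart. Results are thus also given for the 10 libraries with at most 100 HINTW counts, called W-free here (8 affected, 2 non-affected). The 2 non-affected ones, NA61 and NA61B, share bird number 61. The non-affected side of every W-free value and p-value therefore rests on that bird number alone.

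Several muscle and macrophage markers differed between the groups as well. Of 6 myoblast markers, DES, MYF5, MYOD1 and MYOG fell and none rose, and their summed level ran from 54.7 to 224.7 CPM (read counts scaled to library size) in affected and from 72.7 to 1467 CPM in non-affected libraries, highest in NA70. PAX7 (log2 fold change -0.81, adjusted p = 0.106) and PAX3 (-0.56, adjusted p = 0.299) did not pass the test. Of 7 macrophage markers 5 could be tested, of which CSF1R, PTPRC and TREM2 rose. CD74 (log2 fold change 1.118, adjusted p = 0.156) and SPI1 (0.698, adjusted p = 0.333) did not pass. The median of CD74 was 0.7927 CPM in affected and 0.7932 CPM in non-affected libraries. The marker sums were 20.5 to 85.2 CPM in affected and 4.93 to 25.5 CPM in non-affected libraries, highest in A79 and A76B. PTPRC had the highest mean of these markers, 20.44 CPM in affected and 8.099 CPM in non-affected libraries. C1QA and MARCO, both macrophage genes, had medians of 0 and 0.0441 CPM in the non-affected and 0.0767 and 0.115 CPM in the affected group. The 6 endothelial markers summed to 8.96 to 16.6 CPM in affected libraries and 7.98 to 20.1 CPM in non-affected ones apart from NA65, which had 99.5 CPM. Of the NA65 sum, 92.9 CPM came from TEK alone. The 11 proliferation genes had a median log2 fold change of -0.77 and 5 of them an unadjusted p below 0.05, all lower, with sums of 326.9 to 1882 CPM in affected and 677.1 to 1849 CPM in non-affected libraries. Sums overlapped widely for fibroblast markers (3122 to 14430 and 3953 to 17440 CPM), pericyte and smooth muscle markers (2199 to 5274 and 420.4 to 3835 CPM) and Schwann and neural markers (459.0 to 1192 and 593.6 to 1134 CPM). In bulk RNA, fewer cells of a type and less RNA per cell cannot be told apart. The part of these markers and of the W transcripts in the results below was not tested beyond the values given beside them.

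Few guidance genes differed between cells of affected and non-affected birds. A gene was called changed when its p-value, adjusted by the Benjamini-Hochberg method over all 14524 genes with enough counts, was 0.05 or less in the quasi-likelihood test of edgeR. Of the 58 guidance genes 54 were testable. EPHA7, a receptor for ephrin-A ligands, and PLXND1, the plexin that binds SEMA3E, rose, which is 2 of 54 beside a background of 3.33% of all tested genes. SEMA6B, a membrane-bound semaphorin that binds class A plexins, fell, which is 1 of 54 beside 2.91% of all tested genes. Neither share stands far from its background.

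At an unadjusted p below 0.05 there were 12 guidance genes, 9 higher and 3 lower, or 22.2% of those tested against 24.1% of all genes. The median log2 fold change of the 54 genes was 0.02, with -0.01 for all genes, and 28 had a positive and 26 a negative value. The median size of change regardless of sign was 0.29 for guidance genes and 0.21 for all genes, and a change of 1 or more on the log2 scale was reached by 4 of 54 (7.41%) against 6.40% of all genes. For none of the 54 did the CPM values of the 9 affected libraries lie wholly apart from those of the 11 non-affected libraries, a separation seen for 0.0757% of all tested genes. In the plot of fold changes by family, 25 of the 54 values lie within 1 standard error of 0 and 41 within 2. In the W-free libraries 15 of the 54 values had the opposite sign and with the HINTW level as a term 13 did. None of them was a called gene, and turned signs were not counted over all tested genes.

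**Figure D1:**
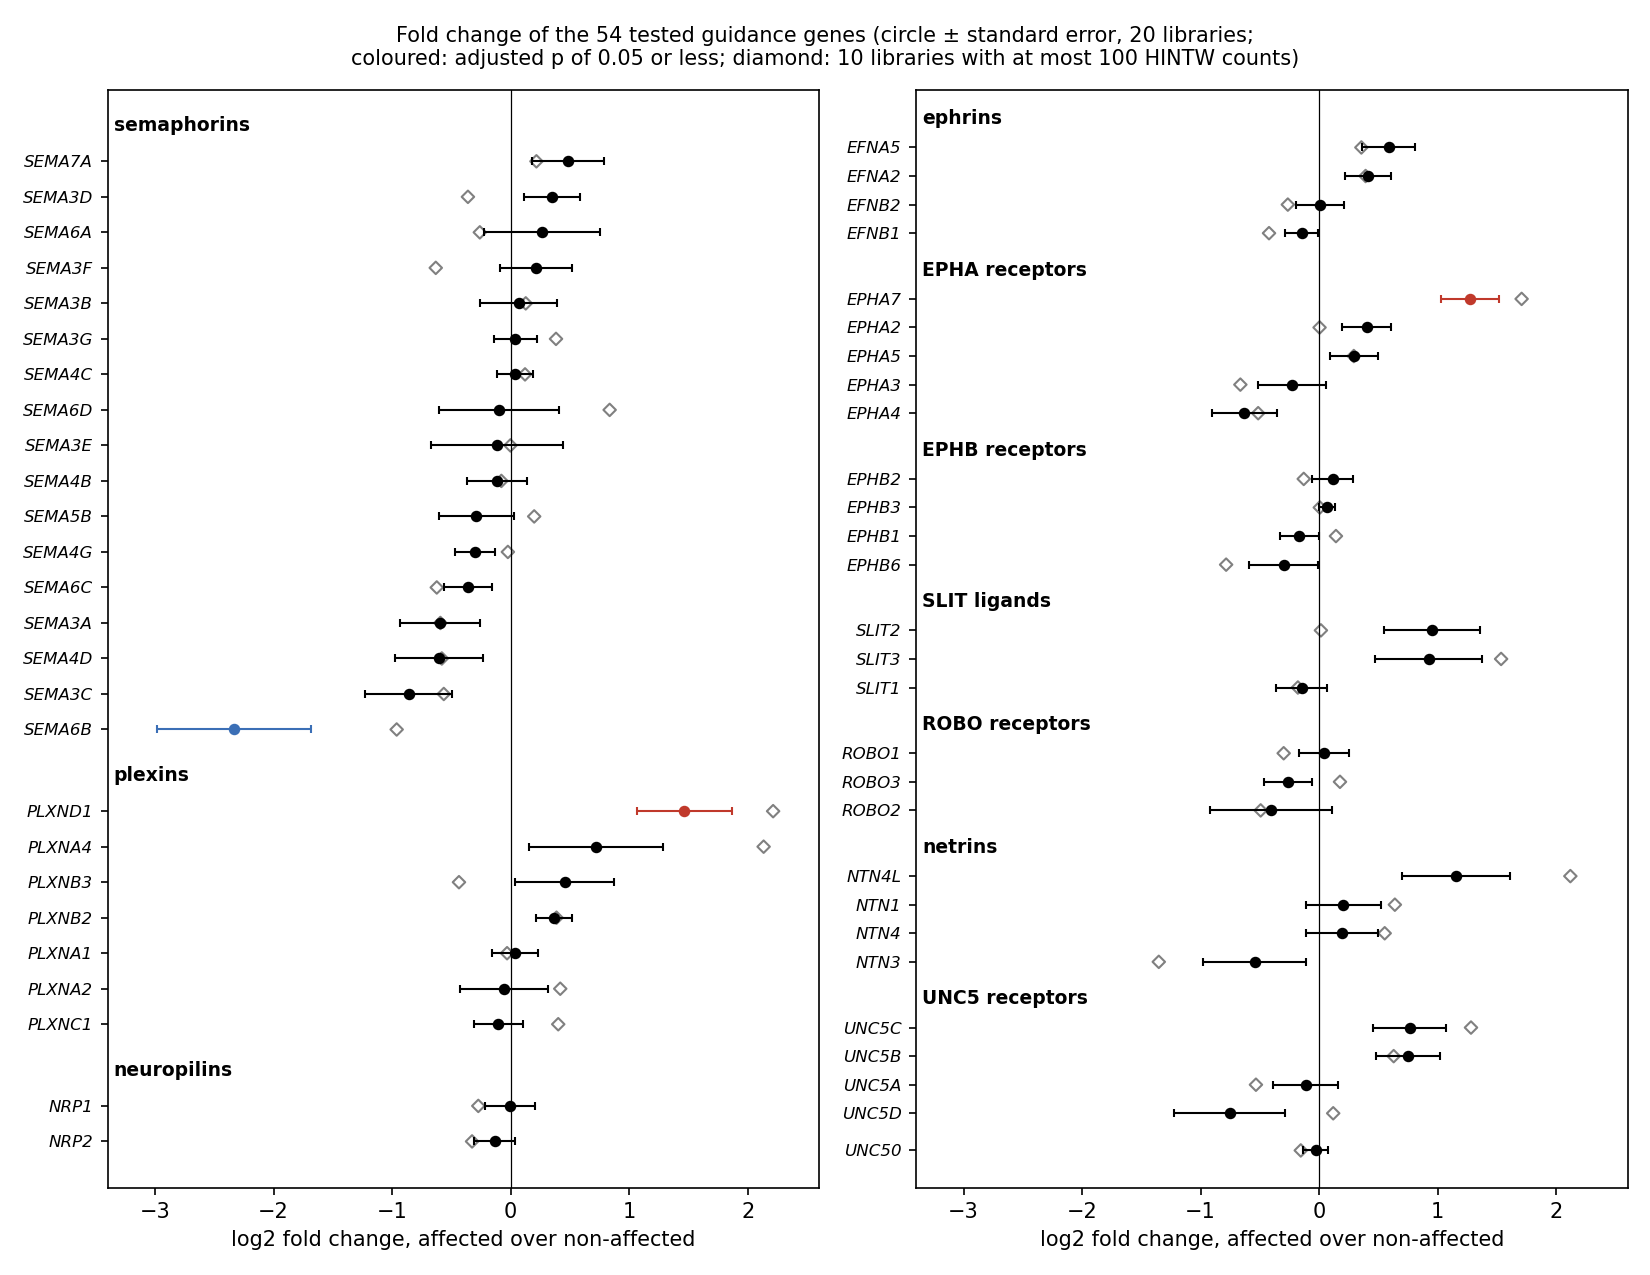
Log2 fold change of each of the 54 tested guidance genes, affected over non-affected, grouped by family. Circles with bars give the value ± standard error over 20 libraries, red and blue mark the genes with an adjusted p of 0.05 or less (EPHA7 and PLXND1 higher, SEMA6B lower), and open diamonds give the value in the 10 W-free libraries, which for EPHA7 is 1.71 and for SEMA6B -0.96.

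EPHA7 was the guidance gene with the smallest p-value. It lies on chromosome 3 from 73598654 to 73758206 (RefSeq annotation of GRCg7b; gene ENSGALG00010004127). In the affected libraries its level was 1.17 CPM in A16, 1.53 in A16B, 1.33 in A4, 1.38 in A72, 0.854 in A73, 0.946 in A76, 2.46 in A76B, 1.33 in A79 and 0.679 in A85. In the non-affected libraries it ran from 0.291 in NA61 to 1.09 in NA65, with a median of 0.503. Every affected library lay above the non-affected median and 6 of 9 above the highest non-affected library, while NA65 was the only one of the 11 non-affected libraries above the lowest affected one.

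The mean of EPHA7 was 1.30 ± 0.517 CPM (SD, n = 9) in affected and 0.533 ± 0.217 CPM (SD, n = 11) in non-affected cells, a log2 fold change of 1.27 (SE 0.244, adjusted p = 0.0071). It stayed called when any single library was left out, with log2 fold changes from 1.11 to 1.43. The gene was sparsely read, with 5 to 40 counts per library, so each value rests on few molecules. Within the W-free libraries, NA61 and NA61B, which share a bird number, had 0.291 and 0.511 CPM, below all 8 affected libraries. The log2 fold change there was 1.71 with an unadjusted p of 0.00661, which missed the threshold after adjustment (adjusted p = 0.242). With the HINTW level as a term in the fit it was 1.32 (unadjusted p = 0.00434, adjusted p = 0.486). Among all tested genes that fit called 0 higher and 1 lower.

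PLXND1 had the largest rise of the 54 guidance genes. This plexin is best known from endothelial cells, where it restrains vessel sprouting, and it lies on chromosome 12 from 19705759 to 19772289 (ENSGALG00010019208). Among affected libraries its level was 538.8 CPM in A4, 532.6 in A16B, 460.4 in A79, 403.3 in A72, 379.6 in A16, 258.4 in A76B, 227.2 in A85, 183.5 in A76 and 180.0 in A73. Non-affected libraries ran from 15.4 CPM in NA70 to 274.1 CPM in NA64 with a median of 97.1. The 5 highest affected libraries lay above every non-affected library, 8 of the 11 non-affected libraries lay below the lowest affected one, and the groups overlapped through NA64, NA66 and NA67.

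The mean of PLXND1 was 351.5 ± 143.6 CPM (SD, n = 9) against 127.4 ± 91.2 CPM (SD, n = 11), a log2 fold change of 1.46 (SE 0.401, adjusted p = 0.0343). The 2 W-free non-affected libraries, which share a bird number, had 59.1 and 100.7 CPM. The W-free log2 fold change was 2.21 with an unadjusted p of 0.000511 (adjusted p = 0.0926). The call was near the threshold: it was lost on leaving out any one of A16, A16B, A4, A72, A79, NA61, NA65, NA68 or NA69, with adjusted p up to 0.0687 and log2 fold changes of 1.37 to 1.46, and the fit with a HINTW term gave 1.67 (adjusted p = 0.847). It was lost as well with bird numbers summed (1.47), without suffix B (1.31) and without A79 and A76B (1.44), at folds close to that of all 20 libraries. The fits without 1 library that lost the call had 268 to 412 of all tested genes higher and 243 to 364 lower. With all 20 libraries these were 484 and 422. Of the 6 endothelial markers, CDH5, KDR and TIE1 were too low to be tested, with medians of 0.246, 0.549 and 0.293 CPM in affected and 0.205, 0.404 and 0.485 CPM in non-affected libraries. TEK fell (-4.04, adjusted p = 0.041, with 92.9 CPM in NA65), and PECAM1 (0.39, adjusted p = 0.222) and VWF (-0.02, adjusted p = 0.981) did not pass. NA65, whose endothelial sum was highest mostly through TEK, had 97.1 CPM of PLXND1, equal to the median of its group. Whether endothelial cells contributed to the PLXND1 level was not tested.

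SEMA6B fell, and 1 library set the size of the fall. It lies on chromosome 28 from 2984248 to 3004533 (ENSGALG00010027217). Affected libraries ran from 0.468 CPM in A16 to 1.52 CPM in A4 with a median of 0.736. Non-affected libraries ran from 0.816 CPM in NA64B to 27.6 CPM in NA70 with a median of 1.43, and the next highest after NA70 was NA68 with 2.75 CPM. Of the 9 affected libraries 7 lay below every non-affected library, and A4 alone lay above the non-affected median.

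The log2 fold change of SEMA6B was -2.33 (SE 0.648, adjusted p = 0.0365) with NA70 and -0.98 (adjusted p = 0.0269) without it. Without NA70 the non-affected mean was 1.52 ± 0.557 CPM (SD, n = 10), against 0.770 ± 0.309 CPM (SD, n = 9) in affected cells. NA70 and NA68 were also the libraries with the highest myoblast marker sums, 1467 and 574.8 CPM. Among affected libraries A85 had the highest such sum, 224.7 CPM, but 0.627 CPM of SEMA6B. A4, the affected library with the most SEMA6B, had a sum of 104.1 CPM. A link of SEMA6B with these sums was not tested. The call was lost without any one of A16, A16B, A72, A76B, A79, A85 or NA68, with adjusted p up to 0.067, and in the W-free libraries the change was -0.96 (adjusted p = 0.40). It was lost as well with bird number as a random effect (-1.37) and with a HINTW term (-0.92), and, at folds as large as with all 20 libraries, with bird numbers summed (-2.499), without suffix B (-2.56) and without A79 and A76B (-2.36). The gene had 8 to 46 counts in every library but NA70.

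**Figure D2:**
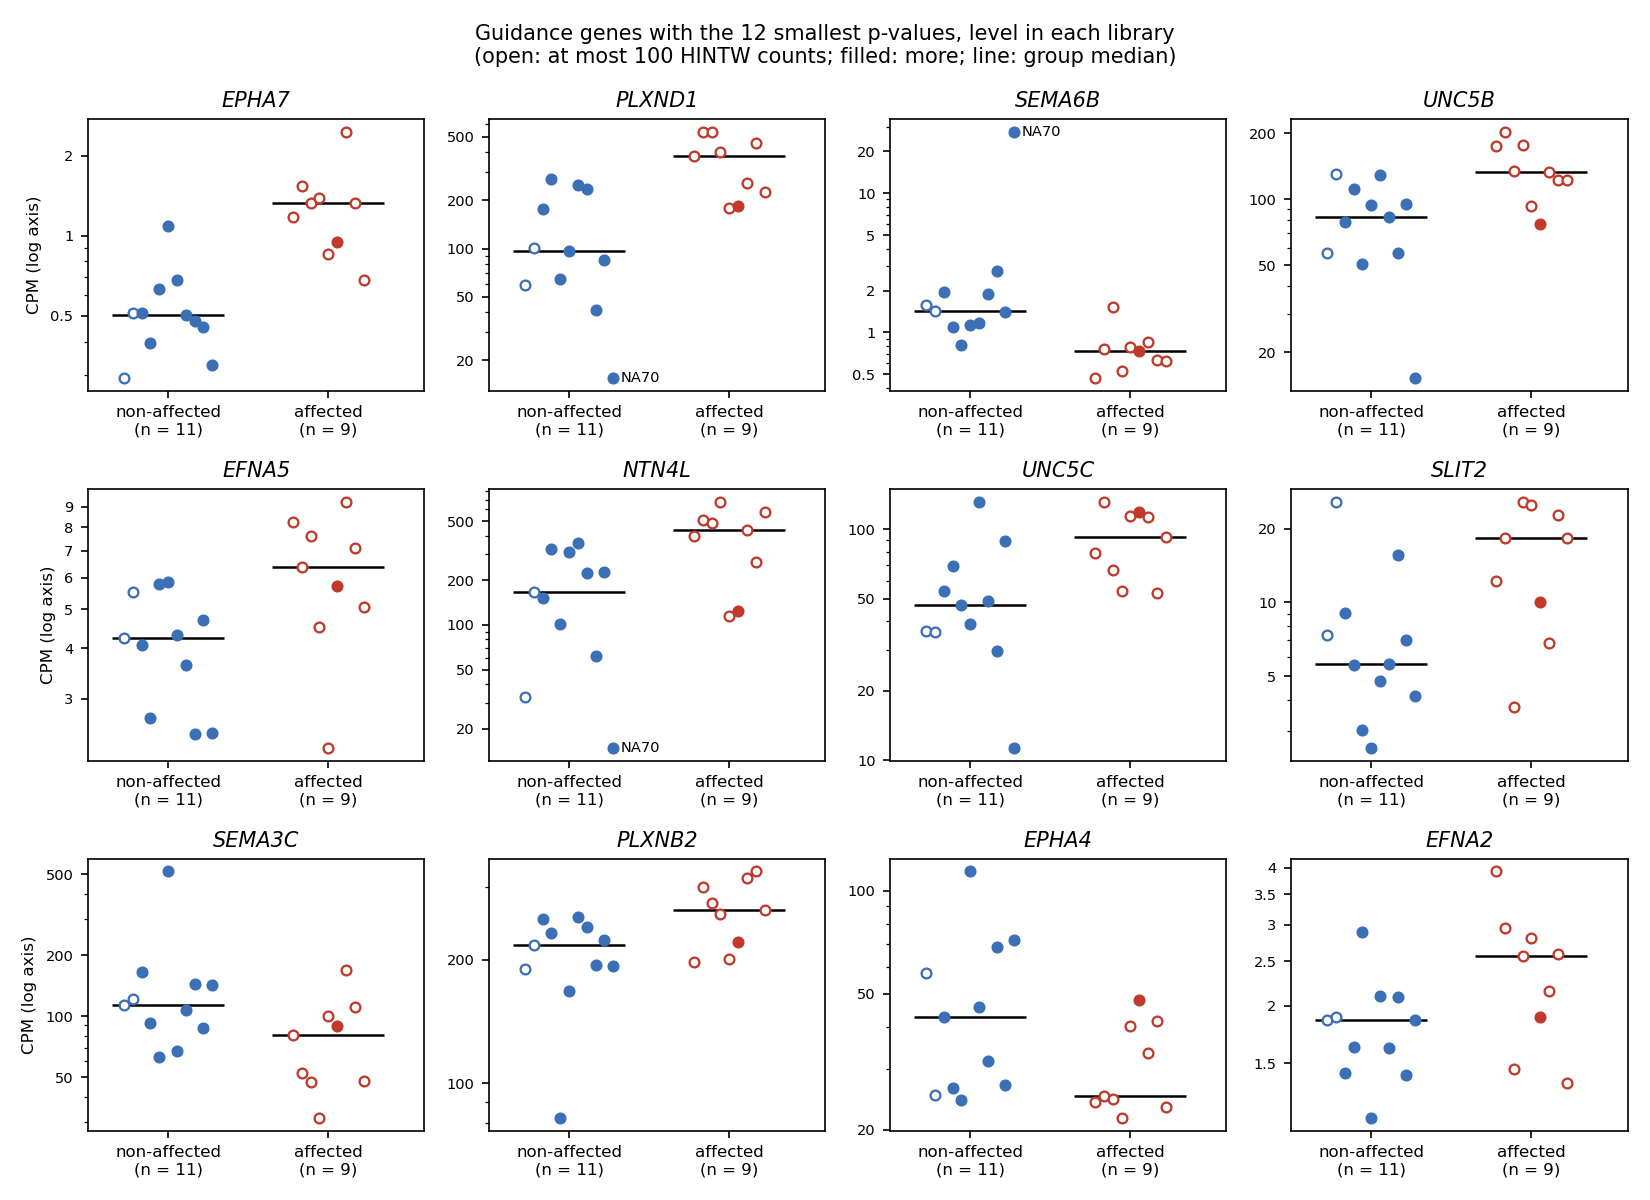
Level in CPM, on log axes, of the 12 guidance genes with the smallest p-values in each of the 11 non-affected (blue) and 9 affected (red) libraries. Open circles are W-free libraries, filled circles have more than 100 HINTW counts, and lines are group medians; EPHA7 in affected libraries runs from 0.679 to 2.46 CPM, and NA70 stands apart for SEMA6B at 27.6 CPM.

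The secreted class 3 semaphorins, which steer cells through neuropilins and plexins, gave no call among 7 genes. SEMA3C, which in vertebrates guides neural crest cells to the heart, ran from 31.5 to 168.7 CPM in affected libraries (median 81.0) and from 63.2 to 515.7 CPM in non-affected libraries (median 113), with 4 affected libraries below every non-affected one. Its log2 fold change was -0.86 (SE 0.365, unadjusted p = 0.028, adjusted p = 0.154). The highest value belonged to NA65, and without it the change was -0.45. SEMA3A, the classical repellent of sensory and motor axons, had a median of 20.8 CPM in affected and 42.1 CPM in non-affected libraries, but A85 had 71.3 CPM, the highest of all 20, and the change of -0.60 did not pass (adjusted p = 0.289), although it was called in limma-voom with sample weights.

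SEMA3D had 229.2 ± 70.7 CPM (SD, n = 9) in affected and 180.1 ± 75.7 CPM (SD, n = 11) in non-affected cells, a log2 fold change of 0.35 (adjusted p = 0.376) whose sign turned in the W-free libraries (-0.36), where NA61 and NA61B had 295.8 and 314.6 CPM. SEMA3E, a ligand of PLXND1, had medians of 1.25 CPM in affected and 1.90 CPM in non-affected libraries and a log2 fold change of -0.11 (adjusted p = 0.923). It had 1 to 107 counts per library. The receptor was thus called and this ligand was not, and the difference between them was not tested. SEMA3A, SEMA3D and SEMA3E lie next to each other on chromosome 1, between 8899181 and 9843704, and SEMA3G, SEMA3F and SEMA3B on chromosome 12 between 3303117 and 3411559. Log2 fold changes within the first group were -0.60, 0.35 and -0.11, and within the second 0.04, 0.22 and 0.07, where SEMA3F had -0.63 in the W-free libraries.

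The other semaphorins are membrane-bound, and besides SEMA6B none was called. SEMA6C, which like SEMA6B belongs to the transmembrane class 6, ran from 1.61 to 4.52 CPM in affected libraries (median 2.38) and from 2.63 to 4.98 CPM in non-affected libraries (median 3.52), with 5 of 9 affected libraries below all non-affected ones and a log2 fold change of -0.36 (adjusted p = 0.283). SEMA6A and SEMA6D, of the same class, had log2 fold changes of 0.26 and -0.10 with standard errors of 0.489 and 0.506, and opposite signs in the W-free libraries (-0.26 and 0.83). SEMA7A, which is held to the membrane by a lipid anchor and signals through integrin and PLXNC1, gave 0.48 (adjusted p = 0.334). SEMA4D, the ligand of class B plexins, gave -0.61 (adjusted p = 0.322), and SEMA4C 0.04 (adjusted p = 0.907). SEMA4B, SEMA4G and SEMA5B had -0.11, -0.30 and -0.29, with standard errors of 0.251, 0.171 and 0.317, and SEMA5B had 0.20 in the W-free libraries. Over all 17 tested semaphorins the median log2 fold change was -0.11, and 1 was called lower. SEMA5A, with 0 to 61 counts per library, was not tested.

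Among the 7 plexins matched by symbol the mean levels of PLXNA1, PLXNB2 and PLXND1 exceeded 100 CPM in both groups. PLXNA1, a receptor for class 3 and class 6 semaphorins, had 655.3 ± 117.6 CPM (SD, n = 9) in affected and 640.2 ± 202.3 CPM (SD, n = 11) in non-affected cells, a log2 fold change of 0.03 (SE 0.193). PLXNB2, the receptor of class 4 semaphorins, ran from 197.3 to 328.0 CPM in affected libraries (median 264.6) and from 82.2 to 253.8 CPM in non-affected libraries (median 216.7). Of the affected libraries 6 of 9 lay above every non-affected one, and the log2 fold change was 0.36 (SE 0.155, unadjusted p = 0.0284, adjusted p = 0.155). It was 0.39 in the W-free libraries.

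PLXNA4 spread widely within both groups, from 3.73 to 44.0 CPM in affected and from 1.19 to 47.9 CPM in non-affected libraries. Its log2 fold change of 0.72 (SE 0.567, adjusted p = 0.443) was 0.39 to 1.39 when single libraries were left out. In the W-free libraries it was 2.13, with 3.26 and 5.06 CPM in NA61 and NA61B. PLXNB3, PLXNA2 and PLXNC1 had values of 0.46, -0.06 and -0.10, all with adjusted p above that of PLXNA4, and in the W-free libraries the opposite signs (-0.44, 0.42 and 0.40). The neuropilins, which carry the binding site for class 3 semaphorins and also bind VEGF, had close means in both groups. NRP1 had 321.5 ± 31.0 CPM (SD, n = 9) and 322.6 ± 110.4 CPM (SD, n = 11), with the lowest value, 68.9 CPM, in NA64B. NRP2 had a log2 fold change of -0.14 (SE 0.171, adjusted p = 0.645).

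Of the 4 ephrins matched by symbol, both A-type ligands were higher at an unadjusted p below 0.05 and neither was called. EFNA5, a membrane-anchored ligand of EPHA receptors including EPHA7, ran from 2.26 CPM in A73 to 9.28 CPM in A76B (median 6.37) and in non-affected libraries from 2.45 to 5.86 CPM (median 4.25). Of the affected libraries 5 of 9 lay above every non-affected one, and the log2 fold change was 0.59 (SE 0.224, adjusted p = 0.117). Without A73 it was 0.71 and was called (adjusted p = 0.026). That fit called 867 higher and 926 lower of all 14692 tested genes, against 484 and 422 of 14524 with all 20 libraries. EFNA5 is a Z-linked gene, and in the W-free libraries its change was 0.36, with 4.25 and 5.52 CPM in NA61 and NA61B.

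EFNA2 ran from 1.36 to 3.92 CPM (median 2.56) in affected and from 1.14 to 2.89 CPM (median 1.86) in non-affected libraries, a log2 fold change of 0.41 (SE 0.197, adjusted p = 0.205) with 22 to 77 counts per library. The B-type ephrins, which cross the membrane and can signal back into the cell that bears them, had values of -0.15 (EFNB1, SE 0.14) and 0.01 (EFNB2, SE 0.204, and -0.26 in the W-free libraries). EFNB2 is the ephrin of arterial endothelium. EFNB1 had 114.5 ± 26.4 CPM (SD, n = 9) and 126.9 ± 28.4 CPM (SD, n = 11).

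The other Eph receptors had values in both directions and none was called. EPHA4, which binds A-type and B-type ephrins and repels motor axons, ran from 21.6 to 47.8 CPM in affected libraries (median 25.2) and from 24.4 to 113.9 CPM in non-affected libraries (median 42.7). Of the affected libraries 3 lay below the lowest non-affected one, 4 non-affected libraries lay above the highest affected one, and the log2 fold change was -0.63 (SE 0.274, unadjusted p = 0.031, adjusted p = 0.162). The highest value was that of NA65. EPHA7 and EPHA4 are both receptors of EFNA5, and their log2 fold changes had opposite signs, of which that of EPHA7 alone passed the test.

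EPHA2, the Eph receptor of many epithelial cells, ran from 154.4 to 339.8 CPM in affected and from 69.6 to 288.2 CPM in non-affected libraries, and all 9 affected libraries lay above the non-affected median of 145.6 CPM. Its log2 fold change was 0.40 (SE 0.207, adjusted p = 0.24) but 0.00 in the W-free libraries, where NA61B held 288.2 CPM. EPHA3 and EPHA5 had values of -0.23 and 0.29. In the W-free libraries EPHA3 had -0.67 (adjusted p = 0.283) and EPHA5 0.29. With a HINTW term in the fit EPHA3 had -0.88 (adjusted p = 0.842). EPHA1, EPHA6 and EPHA8 were not tested, with at most 15, 4 and 18 counts in a library.

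The EPHB receptors, partners of the B-type ephrins, had log2 fold changes between -0.30 and 0.11, and EPHB2, at 0.11, and EPHB1 changed sign in the W-free libraries (-0.13 and 0.14). EPHB3 varied least among libraries, with 68.03 ± 5.32 CPM (SD, n = 9) in affected and 65.1 ± 5.88 CPM (SD, n = 11) in non-affected cells and a log2 fold change of 0.06 (SE 0.067). EPHB1 and EPHB6 had values of -0.17 (SE 0.162) and -0.30 (SE 0.293). EPHB6 lacks kinase activity.

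Of the Slits, SLIT2 and SLIT3 had positive fold changes that did not pass the test. SLIT2 ran from 3.74 CPM in A4 to 25.8 CPM in A72 (median 18.2) and in non-affected libraries from 2.54 CPM in NA65 to 25.6 CPM in NA61B (median 5.59). Above the non-affected median lay 8 of 9 affected libraries, and the log2 fold change was 0.95 (SE 0.402, unadjusted p = 0.0275, adjusted p = 0.153). It depended on NA61B: without that library it was 1.30 and was called (adjusted p = 0.0299), while in the W-free libraries, in which NA61B is 1 of the 2 non-affected, it was 0.01. The fit without NA61B called 671 higher and 520 lower of all 14421 tested genes, against 484 and 422 of 14524 with all 20 libraries.

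SLIT3 ran from 67.98 to 251.2 CPM (median 138.1) in affected and from 3.35 CPM in NA70 to 209.6 CPM in NA66 (median 80.0) in non-affected libraries, a log2 fold change of 0.92 (SE 0.451, unadjusted p = 0.0532). In the W-free libraries SLIT3 had 1.53 (adjusted p = 0.299). SLIT1 had -0.15 (SE 0.215). The Robo receptors gave no value at an unadjusted p below 0.05: ROBO1 had 44.1 ± 11.8 CPM (SD, n = 9) and 42.9 ± 17.4 CPM (SD, n = 11), ROBO2 a log2 fold change of -0.40 (SE 0.514) and ROBO3, a divergent Robo of commissural axons, -0.26 (SE 0.203). In the W-free libraries ROBO1 had -0.30 and ROBO3 0.17.

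Netrins and their UNC5 receptors held several of the larger positive values. NTN4L, listed under a symbol that marks it as similar to netrin-4, ran from 114.6 CPM in A73 to 678.5 CPM in A72 (median 439.2) and in non-affected libraries from 14.8 CPM in NA70 to 355.1 CPM in NA66 (median 166.9). In all, 6 affected libraries lay above every non-affected one, and A73 and A76 lay below the non-affected median. The log2 fold change was 1.16 (SE 0.457, unadjusted p = 0.0196, adjusted p = 0.129) and 2.12 in the W-free libraries, with NA61 at 32.8 and NA61B at 166.9 CPM. NTN4, a netrin of basement membranes, had 0.19 (SE 0.302, adjusted p = 0.718), so the symbols NTN4 and NTN4L gave different values. NTN1, the founding axon attractant, and NTN3 had 0.20 (SE 0.315) and -0.54 (SE 0.433) at mean levels under 3 CPM in both groups.

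UNC5B, a netrin receptor of blood vessels, ran from 77.0 CPM in A76 to 203.6 CPM in A16B (median 133) and in non-affected libraries from 15.2 CPM in NA70 to 130.0 CPM in NA61B (median 83.0). Above every non-affected library lay 5 affected ones, and A76 alone was below the non-affected median, for a log2 fold change of 0.75 (SE 0.27, unadjusted p = 0.0117, adjusted p = 0.10). UNC5C, which mediates repulsion by netrin in axons, ran from 52.9 to 131.9 CPM (median 92.8) and from 11.3 CPM in NA70 to 132.1 CPM in NA66 (median 47.0). All 9 affected libraries lay above the non-affected median. The change was 0.76 (SE 0.307, adjusted p = 0.135), or 0.997 and called without NA66 (adjusted p = 0.0332). The fit without NA66 called 511 higher and 442 lower of all 14436 tested genes. In the W-free libraries UNC5C had 1.28 (adjusted p = 0.223) and UNC5B 0.63 (adjusted p = 0.495). UNC5D had a negative value of -0.75 (SE 0.466, adjusted p = 0.327), with its highest values in NA67 and NA70 and 0.12 in the W-free libraries, and UNC5A had -0.11. UNC50 had 11.8 ± 1.40 CPM (SD, n = 9) and 12.1 ± 1.92 CPM (SD, n = 11).

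The extreme levels of guidance genes gathered in a few libraries, as did those of all tested genes. In NA70, the library with the highest myoblast marker sum, 21 of the 54 genes (38.9%) reached their highest or lowest level of all 20 libraries, against 25.6% of all tested genes. Highest there were SEMA6B and PLXNA1 among others, and lowest were PLXND1, NTN4L, UNC5B, UNC5C, SLIT3 and EPHA2. A73, A76, NA61, NA64B, NA68 and NA70 had proliferation sums of 1392 to 1882 CPM and the lowest NTN4L levels, 14.8 to 124.6 CPM. PLXND1 was lowest within each group in the same libraries. It had 180 and 183.5 CPM in A73 and A76, and 15.4 to 64.7 CPM in NA70, NA68, NA61 and NA64B. These links with the proliferation sums were seen afterwards and were not tested. In NA65, whose endothelial marker sum was highest mostly through TEK, 15 genes (27.8%, all genes 13.5%) were extreme, with EPHA4, SEMA3C and NTN4 highest and SEMA3D and SLIT2 lowest. NA64B held 16 extremes (29.6%, all genes 38.1%), of which 14 were lowest values, including NRP1, PLXNA1 and PLXNB2. NA70, NA65 and NA64B were picked because they held the most extremes of guidance genes, and all are non-affected. Together they held 52 of the 108 extremes of guidance genes (48.1%), against 38.6% of the extremes of all tested genes. The choice itself favours such an excess. Over all tested genes the affected library A16B came next after NA64B and NA70, with 17.4%, beside 7.41% of guidance genes.

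**Figure D3:**
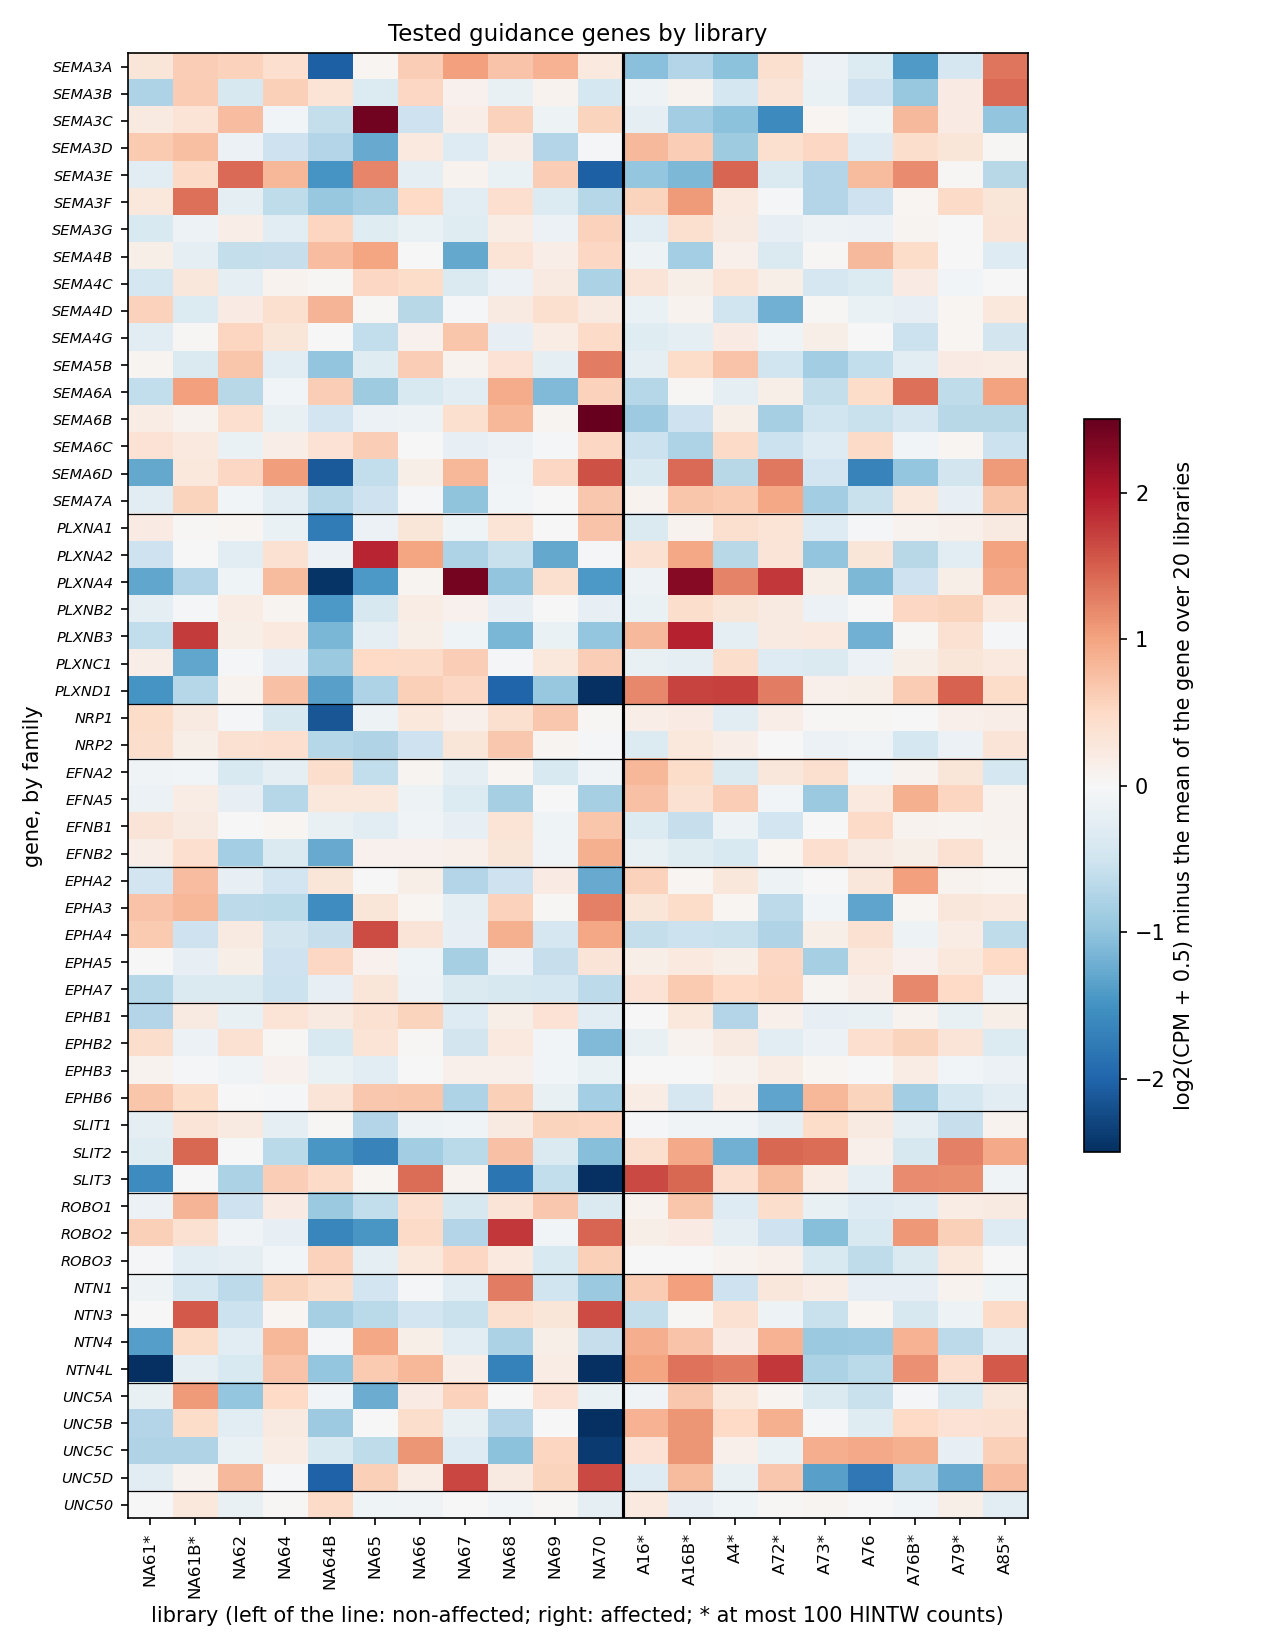
Level of the 54 tested guidance genes in each library, as log2(CPM + 0.5) minus the mean of the gene over the 20 libraries, with non-affected libraries left of the vertical line and affected libraries right of it. Red is above and blue below the mean of the gene; the column of NA70 stands out with SEMA6B high and PLXND1, NTN4L, SLIT3, UNC5B and UNC5C low, and asterisks mark W-free libraries.

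**Figure D4:**
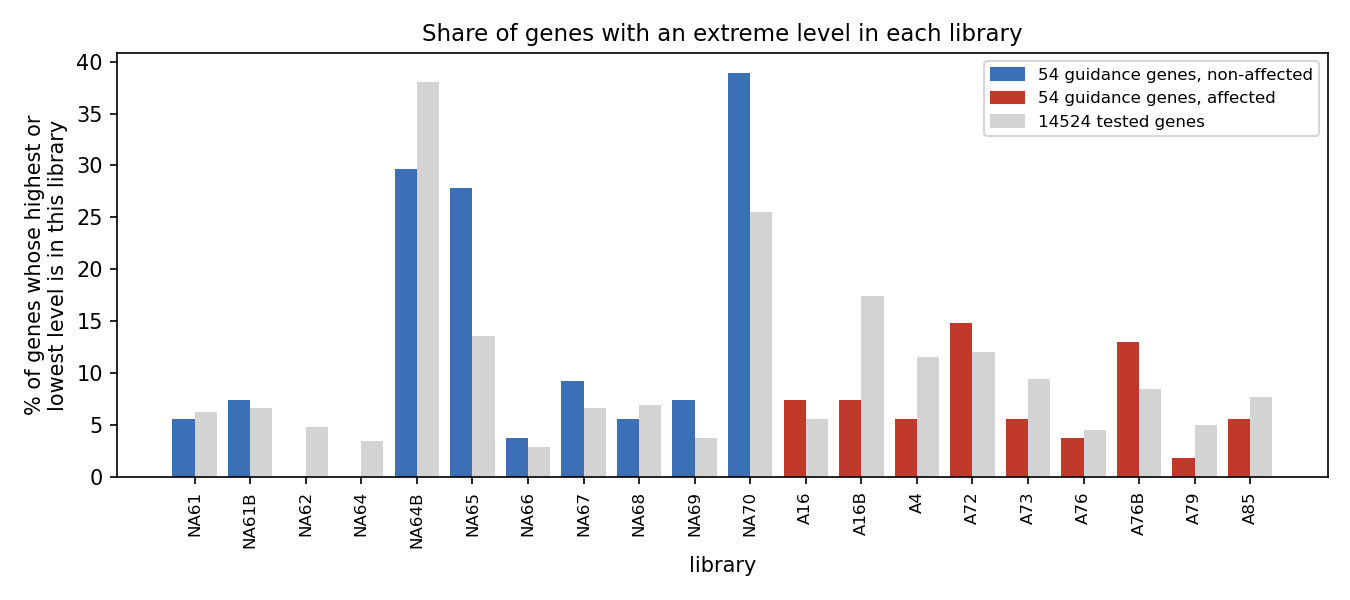
Percent of genes whose highest or lowest level of the 20 libraries falls in a given library, for the 54 guidance genes (blue in non-affected, red in affected libraries) and for all 14524 tested genes (gray). NA70 holds 38.9% of guidance genes and NA65 27.8%, above the 25.6% and 13.5% of all genes, and NA62 and NA64 hold none of the guidance genes. NA64B holds 29.6%, below the 38.1% of all genes.

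With NA70, NA65 and NA64B left out together, a choice made after seeing these values, 1 of 55 tested guidance genes was called higher and 1 lower. Beside these stood 286 higher and 283 lower of all 14418 tested genes. EPHA7 stayed called at 1.42 (adjusted p = 0.00438) and so did SEMA6B at -1.10 (adjusted p = 0.0151), while PLXND1 had 1.198 (adjusted p = 0.0746). Libraries that share a bird number differed over the guidance genes by a median of 0.361 for number 16, 0.508 for number 76, 0.398 for number 61 and 0.689 for number 64 on the log2 scale. Other pairs within a group differed by 0.259 to 0.650 among affected and 0.273 to 0.976 among non-affected libraries, so sharing a number did not set these pairs outside the range of the others.

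Genes that work with the guidance families were read as a further list, covering other ligands, co-receptors and adhesion molecules. Of 14 tested genes 1 was called higher and 0 lower in edgeR, with 2 higher and 2 lower at an unadjusted p below 0.05 (28.6%, against 24.1% of all tested genes), and DESeq2 called 1 lower. The 1 called gene is 7.14% of the list, beside 3.33% of all tested genes. CHL1, an adhesion molecule of the L1 family that acts as a co-receptor for class 3 semaphorins in mouse, ran from 0.122 CPM in A73 to 5.56 CPM in A16B (median 1.36) in affected and from 0.12 to 0.715 CPM (median 0.363) in non-affected libraries. Its log2 fold change was 1.99 (SE 0.525, adjusted p = 0.0282) on 2 to 145 counts per library. Of the affected libraries 5 lay above every non-affected one, A72, A73, A76 and A79 lay within the non-affected range, and the call was lost without A16B (1.46, adjusted p = 0.0916), without A4 or without NA68. The gene fell below the count filter, and so could not be called, without NA61B, NA64 or NA69, and it was lost with sample weights (1.40, adjusted p = 0.0735). MET, the receptor of hepatocyte growth factor, which associates with class B plexins, had -0.69 (SE 0.23, adjusted p = 0.0779), and NEO1, a netrin and RGM receptor, -0.27 (adjusted p = 0.497).

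Among 42 tested genes that act inside the cell downstream of guidance receptors, 1 was called higher (2.38%) and 2 lower (4.76%), beside 3.33% and 2.91% of all tested genes. DPYSL3, a collapsin response mediator protein that binds the cytoskeleton, ran from 13.9 to 46.3 CPM (median 31.9) in affected and from 27.8 to 196.8 CPM (median 80.7) in non-affected libraries, and 10 of 11 non-affected libraries lay above the highest affected one. Its log2 fold change was -1.72 (SE 0.319, adjusted p = 0.0058), between -1.82 and -1.58 and called whichever single library was left out. MICAL1, an actin-oxidising enzyme in semaphorin-plexin signalling, ran from 10.7 to 21.5 CPM in affected and from 12.8 to 450.7 CPM in non-affected libraries, with the highest value in NA70. Its log2 fold change was -2.23 (adjusted p = 0.0277), or -1.13 without NA70 (adjusted p = 0.0229), and the call was lost without A16B or A72. MICAL3, of the same enzyme family, ran from 50.3 to 123.1 CPM against 27.6 to 63.4 CPM, a rise of 0.72 (SE 0.186, adjusted p = 0.0261), lost without A16B, A4 or A72. With a HINTW term or in the W-free libraries none of CHL1, DPYSL3, MICAL1 and MICAL3 was called, DPYSL3 having -1.83 (adjusted p = 0.163) and -2.24 (adjusted p = 0.0641). The calls of CHL1, MICAL1 and MICAL3 were also lost with bird number as a random effect and without A79 and A76B, at log2 fold changes of 1.37 and 2.06, -1.34 and -2.25, and 0.69 and 0.74. MICAL1 was further lost with bird numbers summed (-2.40, adjusted p = 0.0541) and without suffix B (-2.45, adjusted p = 0.0532), and MICAL3 without suffix B (0.55, adjusted p = 0.12). Without NA70, NA65 and NA64B both MICAL3 (0.58, adjusted p = 0.0825) and CHL1 (1.78, adjusted p = 0.0966) were lost.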

How the data were processed

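RNA-seq was made by poly-A selection from 20 cultures. According to the labels and the methods, the authors trimmed reads with Trim Galore 0.6.7 and Cutadapt 3.4, aligned them with STAR 2.7.9a to GRCg7b and quantified genes with Salmon 1.10.1. The annotation release is not given in the sources used here. The deposited values are expected counts per gene (71.2% of values whole), which were rounded. Depth was 15425103 to 28113814 counts per library.

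Counts were scaled by TMM, genes with low counts were removed with filterByExpr, and groups were compared with edgeR 4.0.16 (quasi-likelihood, 9 affected against 11 non-affected, Benjamini-Hochberg over 14524 genes) in R 4.3.3. CPM use the TMM library sizes and are not length-corrected, so levels are compared between libraries and not between genes. Standard errors are the log2 fold change over the square root of F. The edgeR step was tested on simulated counts drawn independently for each library. The simulation held no repeated bird numbers, no link of W transcripts with group and no outlying library. It therefore does not bear on those features of the data. Libraries were treated as separate samples. Where bird numbers repeat, p-values may measure technical spread in part.

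Alternatives were DESeq2 1.42.0, limma 3.58.1 (sample weights, or bird number as random effect), other scalings and filters, robust fitting, summing by bird number, leaving out suffix B, a HINTW term, W-free libraries, leaving out each library, and leaving out A79 with A76B. Leaving out NA70, NA65 and NA64B was added after seeing the data.

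The guidance genes and lists were chosen with earlier results of these data known. Guidance genes named with full values are those called and, per family, the one with the highest mean CPM and the 3 with the smallest p. From the further lists, at most 4 called genes a list were to be named, and MET, NEO1, NTN4, SEMA3A and other guidance genes named outside this rule were chosen after their values were seen. Positions come from RefSeq by symbol (57 of 58 guidance genes). Of the lists, 2 other guidance genes and 3 effectors were not matched by symbol. Figures were drawn with matplotlib 3.10.9.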

Additional observations from a re-analysis of the deposited data

Results flagged for a closer look

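Among the 32 guidance genes whose 9 affected libraries were examined for a library far from the rest, 3 held one, and chance alone gives such a value in about 1 of 20 groups. A76B had 2.46 CPM of EPHA7, with the next highest affected library at 1.53 CPM. A4 had 1.52 CPM of SEMA6B, with the next at 0.861 CPM. A4 also had the lowest NRP1, 253.3 CPM, with the next lowest at 304.3 CPM. The group of 11 non-affected libraries was not examined in this way.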

How the results depend on the processing

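Counts of calls depended on the fit, for all genes as for guidance genes. Among 13229 to 14787 tested genes, 484 were higher and 422 lower in the main fit, 1100 and 1139 with sample weights, and 808 and 735 with DESeq2. The random effect gave 323 and 191, the 1 CPM filter 449 and 377, and summed bird numbers 442 and 327. Without suffix B there were 306 and 289, without A79 and A76B 180 and 169, and without NA70, NA65 and NA64B 286 and 283. Guidance genes called higher were 5 with sample weights, which added EPHA5, EFNA5 and UNC5B. The number was 1 with the filter of 1 CPM, with bird numbers summed and without suffix B. It was also 1 without A79 and A76B and without NA70, NA65 and NA64B. With the HINTW term or in the W-free libraries it was 0. There 4 of 54 and 10 of 56 tested guidance genes had an unadjusted p below 0.05 in edgeR. The share of all genes at that p was not counted in these fits. Guidance genes called lower were 2 with sample weights, which added SEMA3A. Their number was 0 with bird number as a random effect, with bird numbers summed and without suffix B. It was also 0 without A79 and A76B, with the HINTW term and in the W-free libraries. Leaving out 1 library gave 1 to 3 higher and 0 to 1 lower. Over all tested genes those fits ran from 268 higher and 243 lower without A4 to 867 and 926 without A73. Called in all of these except the HINTW term, the W-free libraries and the filter of 1 CPM, which removed it, was EPHA7.

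Other guidance genes called higher were 0 with the random effect, the 1 CPM filter, no suffix B, the HINTW term, the W-free libraries and either joint removal, and those called lower were 1 with DESeq2, sample weights and no suffix B. Leaving out 1 library gave 0 to 1 for both. Effectors called higher were 2 with sample weights and 0 with the random effect, no suffix B, the HINTW term, the W-free libraries and either joint removal, with 0 to 1 on leaving out 1 library. Effectors called lower were 4 with DESeq2 and with sample weights, 1 with the random effect, with bird numbers summed and without A79 and A76B, and 0 with the HINTW term and in the W-free libraries, with 1 to 3 on leaving out 1 library. The cause of these moves was not tested. The HINTW term left 0 genes higher and 1 lower among all genes, and the 10 W-free libraries 9 and 27.

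Signs turned only for uncalled guidance genes, and turned signs were not counted over all genes. Such guidance genes were 15 of 54 in the W-free libraries and 13 of 54 with the HINTW term. Among those named by rule, in the W-free libraries log2 fold changes were 0.12 for UNC5D, -0.36 for SEMA3D, 0.17 for ROBO3, 0.14 for EPHB1, -0.30 for ROBO1 and -0.031 for PLXNA1, and with the HINTW term -0.28 for SEMA3D, -0.39 for ROBO1 and -0.070 for PLXNA1. Sample weights gave 0.049 for ROBO2 and 0.012 for UNC50. UNC50 had 0.016 with bird numbers summed and 0.10 without suffix B, where PLXNA1 had -0.073. Without NA70, NA65 and NA64B, ROBO1 had -0.15 and PLXNA1 -0.012. NRP1 had 0.11 with the random effect and 0.00242 with the 1 CPM filter. Leaving out 1 library gave -0.060 to 0.027 for UNC50, -0.056 to 0.15 for ROBO1, -0.065 to 0.12 for PLXNA1 and -0.11 to 0.071 for NRP1.

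No paired analysis was possible because no bird number occurs in both groups. EPHA7, with 5 to 40 counts per library, CHL1, with 2 to 145, and SEMA6B, with 8 to 46 outside NA70, are limited by depth.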
